A study of Mus musculus with 30 samples.

Results

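The GDNF family ligands and their *Ret* receptors were followed as 7 genes, the ligands *Gdnf*, *Nrtn* and *Artn*, the signalling receptor *Ret* and the binding receptors *Gfra1*, *Gfra2* and *Gfra3*. They were taken by gene symbol, and all 7 were present among the 26179 genes of the *RiboTag* count tables and the 24601 genes of the total RNA count table. The samples came from the small bowel muscularis externa (*ME*), the muscle layer with its nerve plexus, of naïve mice and of mice taken 3 h (IM3h), 24 h (IM24h) or 72 h (IM72h) after intestinal manipulation, an abdominal operation that leads to postoperative ileus. Each was read in 2 fractions, mRNA pulled down with the HA-tagged ribosomes of cells that express *Sox10* (*RiboTag*) and the whole RNA of the tissue (*ME*). The *RiboTag* mice of all groups, naïve controls included, carried the Cre line B6 Tg(Sox10-icre/ERT2)388Wdr/J together with the Rpl22 line B6N.129 Rpl22tm1.1Psam/J, in which tamoxifen-induced Cre under the *Sox10* promoter tags the ribosomes of the cells that express it. The *ME* libraries of naïve mice and of IM3h came from B6.Cg-Tg73.12Mvs/J(Gfap-cre) animals crossed to the same Rpl22 line, whereas those of IM24h and IM72h came from the Sox10-icre/ERT2 cross, so that line and time cannot be told apart in the *ME* comparisons of IM24h and IM72h with naïve mice or with IM3h. The labels of the samples used here give neither age nor sex. There were 3 naïve, 4 IM3h, 4 IM24h and 4 IM72h libraries in the *RiboTag* tables, where the labels list 4 naïve samples, and 3, 3, 4 and 4 in the *ME* table.

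GDNF, neurturin and artemin are secreted growth factors that bind, with different preference, to the co-receptors GFRα1, GFRα2 and GFRα3, which are anchored in the outer cell membrane and bring the ligand to the receptor tyrosine kinase RET. RET then signals into the cell through adaptor proteins such as GRB2 and switches on ETS factors and Sprouty inhibitors. In the gut the pathway is known for guiding enteric neural crest cells, from which enteric neurons and glia descend, and loss of RET, GDNF or GFRα1 leaves the bowel without enteric ganglia, while neurturin and GFRα2 are needed for cholinergic nerve fibres of the muscle layer.

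Library totals ranged from 3010306 to 7899493 counts in the *RiboTag* and from 6603170 to 12866062 in the *ME* fraction. A single gene, AY036118, which lies over ribosomal RNA sequence, took 2.68 to 14.0% of the counts of naïve *RiboTag* libraries, 2.02 to 10.3% of IM3h libraries, 22.2 to 59.2% of those of IM24h and 58.0 to 80.1% of those of IM72h. In the *ME* it took 16.1 to 33.5% in naïve mice, 24.1 to 25.2% at IM3h and 1.33 to 6.50% at the later times. Between 17162 and 19331 genes had a count in naïve *RiboTag* libraries, and between 8644 and 11416 in those of IM72h. *Sox10*, the glial transcription factor whose promoter drove the Cre that switches on the tag, was at 486, 1038 and 574 CPM (counts scaled to a common library size) in the naïve *RiboTag* libraries, between 277 and 405 CPM in the IM3h libraries, at 420, 38.0, 53.7 and 261 CPM in those of IM24h and at 11.9, 2.64, 0 and 1.23 CPM in those of IM72h. The defining marker of the tagged cells was thus near 0 in the IM72h *RiboTag* libraries, and 2 of the 4 IM24h libraries, numbers 2 and 3, were also low. All values are CPM scaled by the trimmed mean of M-values (TMM) over the libraries of a fraction, and since the fractions were scaled separately, levels are read within a fraction unless stated. In such bulk samples fewer cells of a type and less RNA per cell cannot be told apart.

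RefSeq gave a promoter window, 250 bases before to 50 after a start site (build GRCm38.p6), for 4 of the 7 members, in 5 windows. Those of *Gdnf*, *Nrtn* and *Gfra1* are shown because these 3 genes changed in the same *ME* comparison at IM24h. Each was searched on both strands for TGACG, the core of cAMP response elements, for its full palindrome TGACGTCA, which contains that core, and for TGANTCA, the AP-1 element. The windows are *Gdnf* start 1 at chr15:7809798-7810097 and *Gdnf* start 2 at chr15:7813477-7813776 (plus strand), *Nrtn* at chr17:56757499-56757798 and *Gfra1* at chr19:58455349-58455648 (minus strand), with a match in capitals.
Gdnf start 1: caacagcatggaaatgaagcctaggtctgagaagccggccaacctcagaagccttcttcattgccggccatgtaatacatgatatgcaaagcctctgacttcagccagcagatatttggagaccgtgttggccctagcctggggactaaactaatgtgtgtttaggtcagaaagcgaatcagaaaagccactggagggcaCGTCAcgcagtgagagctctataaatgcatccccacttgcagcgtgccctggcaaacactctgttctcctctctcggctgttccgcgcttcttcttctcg
Gdnf start 2: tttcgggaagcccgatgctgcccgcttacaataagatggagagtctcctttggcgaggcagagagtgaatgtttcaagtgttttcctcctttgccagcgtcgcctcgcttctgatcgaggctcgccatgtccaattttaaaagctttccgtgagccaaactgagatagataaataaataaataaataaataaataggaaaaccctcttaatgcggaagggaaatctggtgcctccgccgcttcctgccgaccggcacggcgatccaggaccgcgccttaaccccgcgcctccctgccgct
Nrtn: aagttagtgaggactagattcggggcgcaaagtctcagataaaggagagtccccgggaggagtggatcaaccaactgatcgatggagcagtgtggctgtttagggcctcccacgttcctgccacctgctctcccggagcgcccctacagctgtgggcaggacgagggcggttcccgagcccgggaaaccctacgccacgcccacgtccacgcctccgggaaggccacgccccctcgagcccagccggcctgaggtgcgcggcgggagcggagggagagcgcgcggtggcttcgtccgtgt
Gfra1: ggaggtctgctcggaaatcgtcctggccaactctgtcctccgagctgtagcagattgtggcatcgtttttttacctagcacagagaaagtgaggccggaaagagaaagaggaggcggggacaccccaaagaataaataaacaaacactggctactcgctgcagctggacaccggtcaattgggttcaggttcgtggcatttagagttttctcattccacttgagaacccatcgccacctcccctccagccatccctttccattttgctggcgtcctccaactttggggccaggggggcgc
The single match was TGACG, on the reverse strand at position -50 from *Gdnf* start 1, whose letters read CGTCA in the printed strand. TGACG was present in 20.8% of 32851 promoter windows of the same length, TGANTCA in 7.81% and TGACGTCA in 1.79%, so the count of matches in these 4 windows describes the sequences and says nothing about binding. The Ensembl gene model of *Gdnf* that received the counts (chr15:7810846-7837575, plus strand) starts between the RefSeq start sites.

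Which members changed, and when, was asked by comparing each time point with naïve mice of the same fraction and with the preceding time point. A gene was called changed at an adjusted p under 0.05 in edgeR's quasi-likelihood test, with Benjamini-Hochberg adjustment over all genes tested, and each count of members is given beside the share of all tested genes that were called. *Gdnf* rose in both fractions at IM3h, and in the *ME* it was below the naïve level at both later times, at IM24h with a call that other scalings ended. In the *RiboTag* fraction at IM3h 2 of 7 members were called, *Gdnf* higher and *Gfra2* lower (13.3% of all genes). At IM24h 0 of 7 were called (0.497% of all genes), 4 had an unadjusted p under 0.05 (13.2% of all genes) and DESeq2 called 2, *Gfra1* and *Gfra3* (4.07% of all genes it fitted). At IM72h 2 of 7 were called, *Gfra1* and *Gfra3*, both lower (16.1% of all genes).

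In the *ME* fraction 2 of 6 tested members were called at IM3h, again *Gdnf* higher and *Gfra2* lower (32.7% of all genes). At IM24h 3 of 6 were called, *Gdnf*, *Nrtn* and *Gfra1*, all lower (29% of all genes), and at IM72h 3 of 7, with *Gdnf* and *Gfra1* lower and *Gfra2* higher (57.5% of all genes). The share of members called in the *ME* thus stayed near or under the share of all genes at IM3h and IM72h. Between time points, 1 of 6 members was called from IM3h to IM24h in the *RiboTag* fraction (1.9% of all genes) and 0 of 4 from IM24h to IM72h (0% of all genes), where 0 members had an unadjusted p under 0.05 (6.31% of all genes) and DESeq2 called *Gfra1* (1.74% of all genes it fitted). In the *ME*, 2 of 6 were called from IM3h to IM24h (27.6% of all genes) and 3 of 6 from IM24h to IM72h (38.5% of all genes). The comparisons with naïve mice share their control libraries within a fraction.

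**Figure D1:**
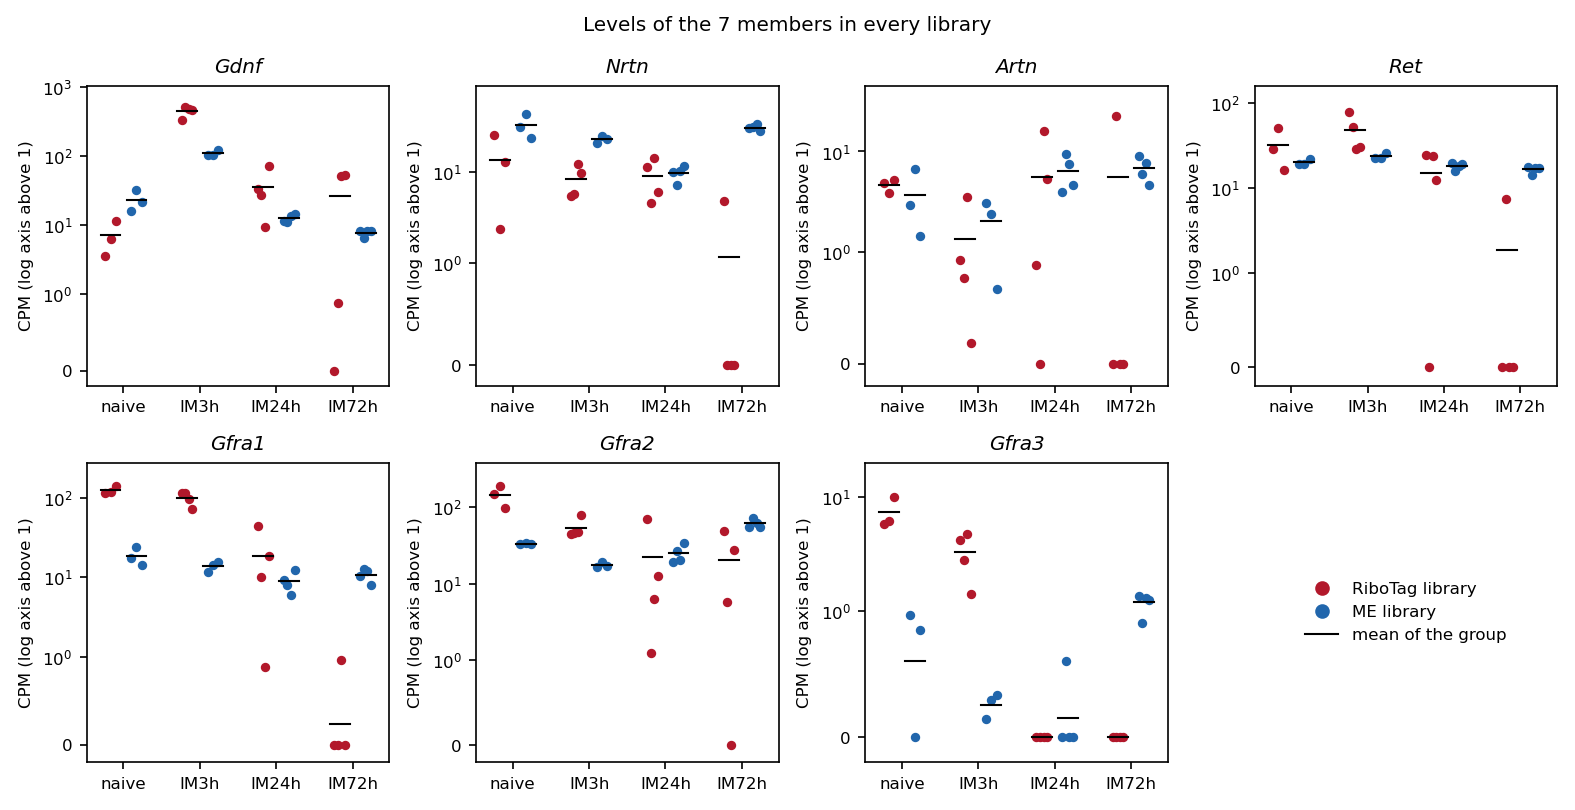
Levels of the 7 genes in every RiboTag (red) and ME (blue) library, in TMM-scaled CPM on an axis that is logarithmic above 1 and linear below, with a line at each group mean; the fractions were scaled separately. Gdnf stood highest at IM3h in both fractions, whereas Gfra1 and Gfra3 of the RiboTag libraries fell to or near 0 by IM72h.

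*Gdnf* encodes the ligand that gave the family its name. In the *RiboTag* fraction the naïve libraries held 3.56, 6.33 and 11.6 CPM (28, 56 and 98 counts), and the IM3h libraries 340, 524, 480 and 468 CPM (4127 to 5489 counts). All 4 IM3h libraries lay far above all 3 naïve ones, with means of 453 ± 79.3 (SD, n = 4) and 7.17 ± 4.10 CPM (SD, n = 3). This was a 65.8-fold rise, a log2 fold change of 6.04 (SE 0.44, adjusted p = 1.70e-05 by edgeR). Fitted together with all other *RiboTag* libraries, whose spread was then shared, the log2 fold change was 5.98 and the adjusted p 0.0502.

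At IM24h the *RiboTag* libraries held 33.4, 27.4, 9.31 and 71.8 CPM of *Gdnf* and at IM72h 0, 0.88, 51.9 and 52.9 CPM. From IM3h to IM24h *Gdnf* fell by 3.60 on the log2 scale (SE 0.52, adjusted p = 0.00506 by edgeR), and no library of one group reached the other. The adjusted p was 0.162 in the fit over all 4 groups. Against naïve mice *Gdnf* was not called at IM24h (log2 fold change 2.35, SE 0.82, adjusted p = 0.200 by edgeR) or at IM72h (1.95, SE 1.95, adjusted p = 0.72 by edgeR), and at IM72h the libraries fell into 2 without and 2 with clear signal, 0 and 2 counts against 54 and 86. Scaled by *Actb*, *Hsp90ab1* and *Rplp1*, the difference from naïve mice was 0.87 at IM24h and 0.28 at IM72h, and scaled by library totals that at IM72h was -0.13. From IM24h to IM72h the log2 difference was -0.29 and its sign depended on single libraries.

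*Gdnf* also rose in the *ME* at IM3h. Naïve *ME* libraries held 16.2, 32.1 and 21.4 CPM and IM3h libraries 106, 103 and 125 CPM, a 5.02-fold rise without overlap (log2 fold change 2.33, SE 0.22, adjusted p = 3.51e-05 by edgeR). Later it sank below the naïve level, with 11.4, 11.1, 13.8 and 14.6 CPM at IM24h and 8.15, 6.62, 8.23 and 8.19 CPM at IM72h. The group levels ran in the order IM3h, naïve, IM24h and IM72h, and no neighbours in this order overlapped. From IM3h to IM24h *Gdnf* fell by 3.09 on the log2 scale (SE 0.17, adjusted p = 9.29e-06 by edgeR). From IM24h to IM72h it fell by 0.74 (SE 0.20, adjusted p = 0.0135 by edgeR), with an adjusted p of 0.0571 without IM72h library 2, the lowest of its group, and of 0.0551 when scaled by *Actb*, *Hsp90ab1* and *Rplp1*.

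Against naïve mice, *ME* *Gdnf* was lower at IM72h by a log2 fold change of -1.59 (SE 0.22, adjusted p = 0.00012 by edgeR), a call kept under all 7 settings and all 7 fits without 1 library. The lower level at IM24h (-0.86, SE 0.26, adjusted p = 0.0286 by edgeR) was less firm, since the call was kept in 2 of the 7 fits that left out 1 library and the adjusted p was 0.155 without naïve library 2, the highest of its group. Scaled by library totals the difference was -0.19 (adjusted p = 0.564), and scaled by *Actb*, *Hsp90ab1* and *Rplp1* it was -1.18 (adjusted p = 0.0613). Smooth muscle markers, summed over 7 genes, stood at 22137 to 23746 CPM in naïve *ME*, 3245 to 10822 at IM24h and 12403 to 20522 at IM72h, and their part in the *Gdnf* level was not tested.

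Whether *Gdnf* changed more in the tagged fraction was tested as an interaction of fraction and treatment. At IM3h the rise in *RiboTag* exceeded that in *ME* by 3.80 on the log2 scale (SE 0.46, adjusted p = 0.000628 by edgeR), and *Gdnf* was the one member of 7 called (1.66% of all genes). The *RiboTag* libraries and the naïve and IM3h *ME* libraries came from different Cre lines, so that fraction and line cannot be told apart in this interaction, and the naïve *ME* libraries enter those of the later times too. The difference kept its call in all 5 alternative settings and in all 13 fits that left out 1 library. At IM24h, 0 of 7 members were called (0.537% of all genes), with an unadjusted p under 0.05 for 2 (13.5% of all genes), and *Gdnf* alone was called by DESeq2 (4.21% of all genes it fitted). The *Gdnf* difference there was 3.24 (SE 0.85, adjusted p = 0.0968 by edgeR), 3.55 with an adjusted p of 0.0142 without IM24h *RiboTag* library 3, and 3.81 with an adjusted p of 0.00588 without IM24h *RiboTag* libraries 2 and 3, a choice made after the data were seen.

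*Nrtn* encodes neurturin, the ligand preferred by GFRα2. In the *ME* it held 30.3, 42.6 and 23.4 CPM in naïve mice, 20.6, 24.1 and 22.8 CPM at IM3h, 9.8, 7.11, 10.2 and 11.5 CPM at IM24h and 29.8, 30.3, 33.1 and 27.3 CPM at IM72h. The IM24h libraries were below all others, and those of IM72h were back within the naïve range. The fall against naïve mice at IM24h was -1.73 on the log2 scale (SE 0.25, adjusted p = 0.000895 by edgeR) and was called under all 7 settings and all 7 fits without 1 library. From IM3h to IM24h it fell by 1.18 (SE 0.23, adjusted p = 0.00445 by edgeR), a call lost when scaled by library totals or by *Actb*, *Hsp90ab1* and *Rplp1*, and from IM24h to IM72h it rose by 1.61 (SE 0.18, adjusted p = 9.45e-05 by edgeR). The IM24h and IM72h mice were of the same line, so that this last rise does not run with the change of line.

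In the *RiboTag* fraction *Nrtn* overlapped between naïve, IM3h and IM24h libraries, with 25.2, 2.37 and 12.8 CPM in naïve mice, 5.41 to 12.2 CPM at IM3h and 4.5 to 14.2 CPM at IM24h. At IM72h 1 library held 4.75 CPM from 10 counts and 3 held none. No *RiboTag* comparison called *Nrtn* with all libraries. Against naïve mice at IM72h it was called lower in 1 of the 7 fits that left out 1 library (adjusted p = 0.0486 by edgeR).

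*Artn* encodes artemin, the ligand of GFRα3. *RiboTag* libraries held 4.83, 3.84 and 5.22 CPM in naïve mice and 0.927, 0.764, 3.49 and 0.187 CPM at IM3h, without overlap, but the exact two-sided permutation p of 0.0571 is the smallest that 4 against 3 libraries can give and edgeR did not call it. At IM24h the values scattered from 0 to 16.0 CPM and at IM72h 1 library held 22.4 CPM while the other 3 held none. The log2 difference between IM72h and naïve mice was 0.23 (adjusted p = 0.977 by edgeR). In 1 of the 7 fits that left out 1 library, *Artn* was instead called lower at IM72h (adjusted p = 0.019 by edgeR). In the *ME* the naïve libraries held 1.45 to 6.67 CPM of *Artn*, the IM3h libraries 0.665 to 3.1, the IM24h libraries 3.96 to 9.51 and the IM72h libraries 4.68 to 9.08 CPM. The log2 difference was 0.96 at IM72h against naïve mice (adjusted p = 0.0763 by edgeR) and 1.66 from IM3h to IM24h (adjusted p = 0.0544 by edgeR), neither of them called. The call at IM72h was gained by library totals (1.60, adjusted p = 0.00342) and without a filter on low counts (1.06, adjusted p = 0.042), and that from IM3h to IM24h by DESeq2 (adjusted p = 0.0311), by library totals (2.44, adjusted p = 0.00534) and in the fit over all groups (adjusted p = 0.0281). Leaving out 1 library also gave calls, at IM72h without naïve library 2 (1.61, adjusted p = 0.0066) or IM72h library 4 (adjusted p = 0.0487) and from IM3h to IM24h without IM24h library 4 (adjusted p = 0.0392).

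*Ret* encodes the receptor kinase through which the 3 ligands signal. In the *ME* its libraries lay close together, with 19.1, 18.9 and 21.8 CPM in naïve mice, 22.3, 22.3 and 25.6 CPM at IM3h, 15.9 to 19.8 CPM at IM24h and 14.1 to 17.7 CPM at IM72h. *RiboTag* libraries held 28.6, 51.1 and 16.1 CPM in naïve mice, 79.1, 51.8, 28.8 and 30.6 CPM at IM3h and 24.05, 0, 23.9 and 12.4 CPM at IM24h. At IM72h 1 library held 7.48 CPM, from 17 counts, and 3 held none. *Ret* passed the test in none of the 10 comparisons by edgeR, and in none of them was its unadjusted p under 0.05. DESeq2 called it in 0 *RiboTag* comparisons, and with the IM72h *RiboTag* library 2 left out, the one that held its counts, edgeR called it against naïve mice at IM72h with an adjusted p of 0.019. Scaled by *Actb*, *Hsp90ab1* and *Rplp1*, *Ret* was lower in the *ME* at IM72h (-0.91, adjusted p = 0.00116 by edgeR).

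*Gfra1* encodes the co-receptor preferred by GDNF and lies at chr19:58235604-58455909 on the minus strand, where it overlaps the gene *Gm16277* on the other strand. Whether the counting used strand is not given in the sources used here. In the *RiboTag* fraction *Gfra1* held 116, 120 and 140 CPM in naïve mice and 114, 114, 96.8 and 73.8 CPM at IM3h. It then held 44.9, 10.2, 0.887 and 18.5 CPM at IM24h, and at IM72h a single count in 1 of 4 libraries. The IM72h level was at least 67.2-fold lower than the naïve one, taking 3 counts per library as the floor (adjusted p = 0.00818 by edgeR), and every setting and every fit without 1 library kept the call. At IM24h the log2 difference from naïve mice was -2.67 (adjusted p = 0.143 by edgeR), although all 4 libraries lay below the naïve ones. The log2 difference from IM3h to IM24h was -2.32 (adjusted p = 0.12 by edgeR). Both differences were called by DESeq2 (adjusted p = 0.0279 against naïve mice and 0.0338 against IM3h) and without IM24h library 1, the highest of its group (-3.59, adjusted p = 0.0326 and -3.25, adjusted p = 0.0348), and that against IM3h also without a filter on low counts (adjusted p = 0.0437).

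In the *ME* *Gfra1* was lower at IM24h and IM72h. It held 17.6, 24.3 and 14.5 CPM in naïve mice, 11.6, 14.5 and 15.8 CPM at IM3h, 9.32, 8.01, 6.01 and 12.4 CPM at IM24h and 10.3, 12.87, 11.9 and 8.0 at IM72h, where no library reached the naïve range. The log2 fold change was -1.07 at IM24h (SE 0.30, adjusted p = 0.0217 by edgeR) and -0.82 at IM72h (SE 0.22, adjusted p = 0.00713 by edgeR). Scaling by library totals ended both calls, scaling by *Actb*, *Hsp90ab1* and *Rplp1* ended that at IM24h (-1.37, adjusted p = 0.0577), and 4 of the 7 fits without 1 library kept the one at IM24h. At IM72h the fall in *RiboTag* exceeded that in *ME* (adjusted p of the interaction = 0.000459 by edgeR).

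*Gfra2* encodes the co-receptor preferred by neurturin. *RiboTag* libraries held 146, 190 and 96.7 CPM in naïve mice and 44.2, 45.7, 46.6 and 79.4 CPM at IM3h, without overlap. This fall was 2.57-fold, a log2 fold change of -1.36 (SE 0.30, adjusted p = 0.0111 by edgeR), and it lost its call without naïve library 2, the highest of its group (adjusted p = 0.0648), and in the fit over all groups (-1.42, adjusted p = 1). The values then spread widely, with 70.0, 1.23, 6.21 and 12.6 CPM at IM24h and 48.0, 5.72, 0 and 27.1 CPM at IM72h. Neither was called against naïve mice (log2 difference -2.60, adjusted p = 0.190 and -2.82, adjusted p = 0.184, by edgeR). *Gfra2* was called lower at IM24h without IM24h library 1, the highest of its group (-4.35, adjusted p = 0.0102), and at IM72h when scaled by *Actb*, *Hsp90ab1* and *Rplp1* (-4.66, adjusted p = 0.0239).

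*ME* libraries held 33.2, 33.8 and 32.7 CPM of *Gfra2* in naïve mice, 16.6, 19.0 and 17.1 CPM at IM3h, 19.2, 26.4, 20.2 and 33.5 CPM at IM24h and 54.9, 72.8, 62.2 and 54.1 at IM72h. The *ME* level was thus lowest at IM3h and highest at IM72h, and each of these groups stood apart from the naïve libraries. The log2 fold change against naïve mice was -0.87 at IM3h (SE 0.14, adjusted p = 0.000993 by edgeR) and 0.85 at IM72h (SE 0.13, adjusted p = 0.000272 by edgeR). From IM3h to IM24h the difference of 0.54 was not called (adjusted p = 0.119 by edgeR, but 1.33 with an adjusted p of 0.00107 by library totals and 0.0497 in the fit over all groups), and from IM24h to IM72h, within 1 mouse line, *Gfra2* rose by 1.26 (SE 0.20, adjusted p = 0.00059 by edgeR). Scaled by *Actb*, *Hsp90ab1* and *Rplp1*, the rise against naïve mice was 0.24 with an adjusted p of 0.242 and that from IM24h was 0.98 with an adjusted p of 0.0642.

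*Gfra3* encodes the artemin co-receptor. It was found in naïve *RiboTag* libraries at 5.72, 6.10 and 9.96 CPM (45 to 84 counts), at IM3h at 4.17, 2.77, 4.65 and 1.40 CPM, and in none of the 8 later libraries. Against the floor of 3 counts per library it was at least 3.89-fold lower at IM72h than in naïve mice (adjusted p = 0.0141 by edgeR, not called without a filter on low counts or in the fit over all groups) and, with deeper libraries, at least 8.28-fold lower at IM24h (adjusted p = 0.130 by edgeR, adjusted p = 0.00401 by DESeq2). From IM3h to IM24h it was at least 3.71-fold lower (adjusted p = 0.0839 by edgeR, adjusted p = 0.0101 by DESeq2). In the *ME* *Gfra3* had at most 19 counts in a library and was tested at IM72h only among the comparisons with naïve mice. There the libraries held 0.903 to 1.34 CPM against 0 to 0.967 CPM in naïve mice.

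**Figure D2:**
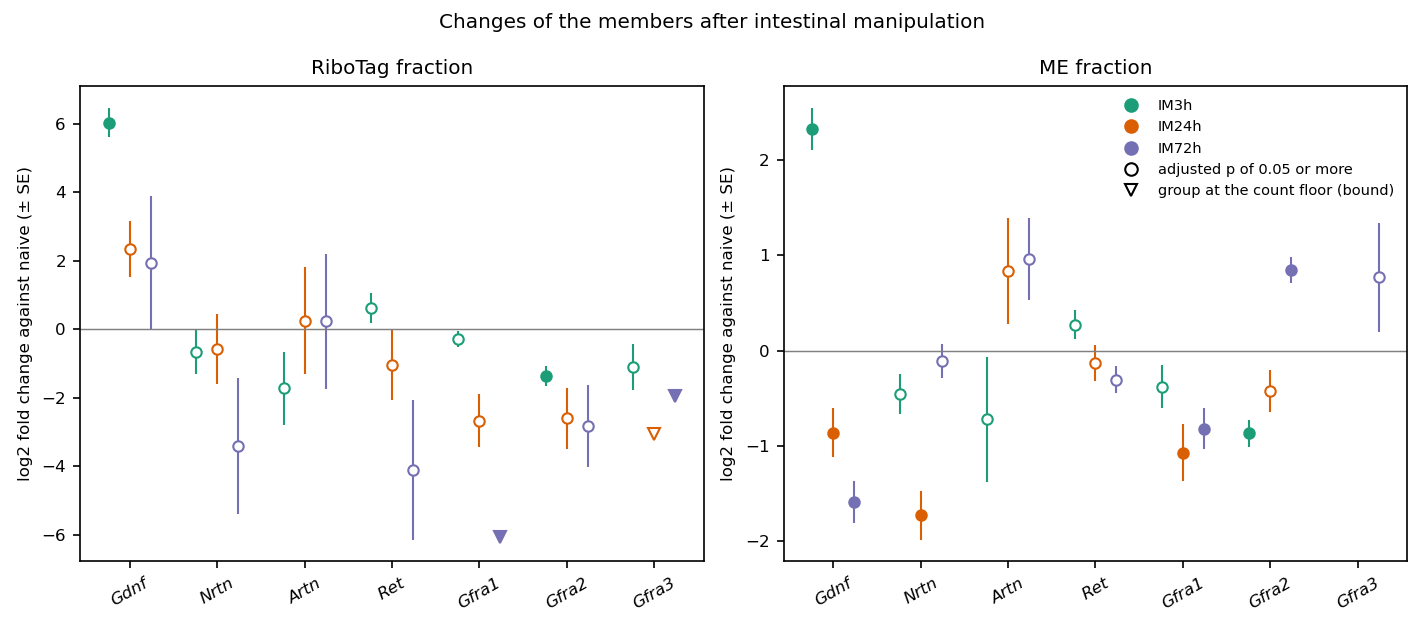
Log2 fold changes against naïve mice with their standard errors, for RiboTag at left and ME at right; filled symbols have an adjusted p under 0.05 and triangles are bounds for groups at the count floor. The y axes differ, and Gdnf at IM3h is the highest point in both panels.

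Ranked by group mean, the levels of the other members often could not be told apart between neighbours. In *RiboTag*, *Gdnf* ran in the order IM3h, IM24h, IM72h and naïve, with overlap between all neighbours after IM3h and IM24h and a sign at IM72h that turned with the scaling, *Ret* in the order IM3h, naïve, IM24h and IM72h, and *Gfra1* and *Gfra2* in the order naïve, IM3h, IM24h and IM72h. *Gfra3* ran from naïve to IM3h and was at 0 in all libraries of both later times. *Nrtn* ran in the order naïve, IM24h, IM3h and IM72h, with IM3h and IM72h apart (exact two-sided permutation p = 0.0286, the smallest for 4 against 4 libraries), and *Artn* in the order IM72h, IM24h, naïve and IM3h, with naïve and IM3h apart. The pairs were set by the order of the same means, so that neighbours standing apart is a description. Between groups of a fraction, the share of all genes apart was taken only for the *RiboTag* pairs that follow. The naïve and IM3h libraries did not overlap for 5 of 7 members, *Gdnf*, *Artn* and the 3 co-receptors, which held for 29.9% of all genes tested. Those of IM3h and IM24h did not overlap for 4 of 6 tested members, *Gdnf*, *Ret*, *Gfra1* and *Gfra3*, which held for 16.1% of all genes tested. In the *ME*, *Nrtn* ran in the order naïve, IM72h, IM3h and IM24h, of which naïve and IM72h overlapped, and *Gfra2* in the order IM72h, naïve, IM24h and IM3h, of which naïve and IM24h overlapped. *ME* *Ret* had IM3h apart from naïve mice (exact p = 0.1, the smallest for 3 against 3 libraries), and *ME* *Artn*, *Gfra1* and *Gfra3* had no neighbours apart.

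At IM72h the interaction called 3 of 7 members, all 3 of them co-receptors (23.3% of all genes). Besides *Gfra1*, these were *Gfra3* (adjusted p = 0.00259 by edgeR) and *Gfra2*, where the change in *RiboTag* minus that in *ME* was -3.94 on the log2 scale (SE 1.30, adjusted p = 0.042 by edgeR). The *Gfra2* call was kept in 4 of the 14 fits that left out 1 library and lost without AY036118 (adjusted p = 0.0548). *Ret* and *Nrtn* were called as well by library totals (adjusted p = 0.0138 and 0.0184) and by *Actb*, *Hsp90ab1* and *Rplp1* (adjusted p = 0.0399 and 0.0469), and *Ret* by DESeq2 (adjusted p = 0.015). With 1 *RiboTag* library of IM72h left out, *Nrtn* (without library 1), *Ret* (without library 2) and *Gdnf* (without library 1, 3.53 higher in *RiboTag*, adjusted p = 0.0482) were called too. For *Nrtn* and *Ret* the library left out was the only one of IM72h with counts. *Artn* was also called in 1 of the 14 fits that left out 1 library (adjusted p = 0.000736 by edgeR). The median of all genes in this interaction was itself -0.98.

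*Sox10* was measured beside the co-receptors in each *RiboTag* library. It was lower at IM3h (log2 fold change -0.97, SE 0.29, adjusted p = 0.0471 by edgeR) and at IM72h (adjusted p = 0.00818 by edgeR). At IM24h the libraries with the most *Sox10*, numbers 1 and 4, held 44.9 and 18.5 CPM of *Gfra1* and 70.0 and 12.6 CPM of *Gfra2*, and the libraries with little *Sox10*, numbers 2 and 3, held 10.2 and 0.887 CPM of *Gfra1* and 1.23 and 6.21 CPM of *Gfra2*. At IM72h, with *Sox10* at 11.9 CPM or less, *Gfra2* was still at 48.0 and 27.1 CPM in 2 libraries. The glial marker sum over 8 genes, which includes *Sox10*, ranged from 1638 to 1967 CPM in naïve and from 184 to 1461 CPM in IM72h *RiboTag* libraries, where each of the 8 markers had counts in at least 1 library. In the *ME*, *Sox10* was called higher at each time. Its log2 fold change was 0.68 at IM3h (adjusted p = 0.00928), 1.64 at IM24h (adjusted p = 0.00514) and 2.37 at IM72h (adjusted p = 0.000441, all by edgeR). The list of 8 glial markers, *Sox10* included, was mixed in the *ME*. Its calls were 2 up and 2 down at IM3h, 1 up and 1 down at IM24h, 4 up and 2 down at IM72h. The *ME* mice of IM24h and IM72h were of the Sox10-icre/ERT2 cross and the naïve ones of the Gfap-cre cross. The larger *Sox10* changes at these times thus cannot be separated from the line. The part of *Sox10* and of the tagged cells in the fall of the co-receptors was not tested.

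**Figure D3:**
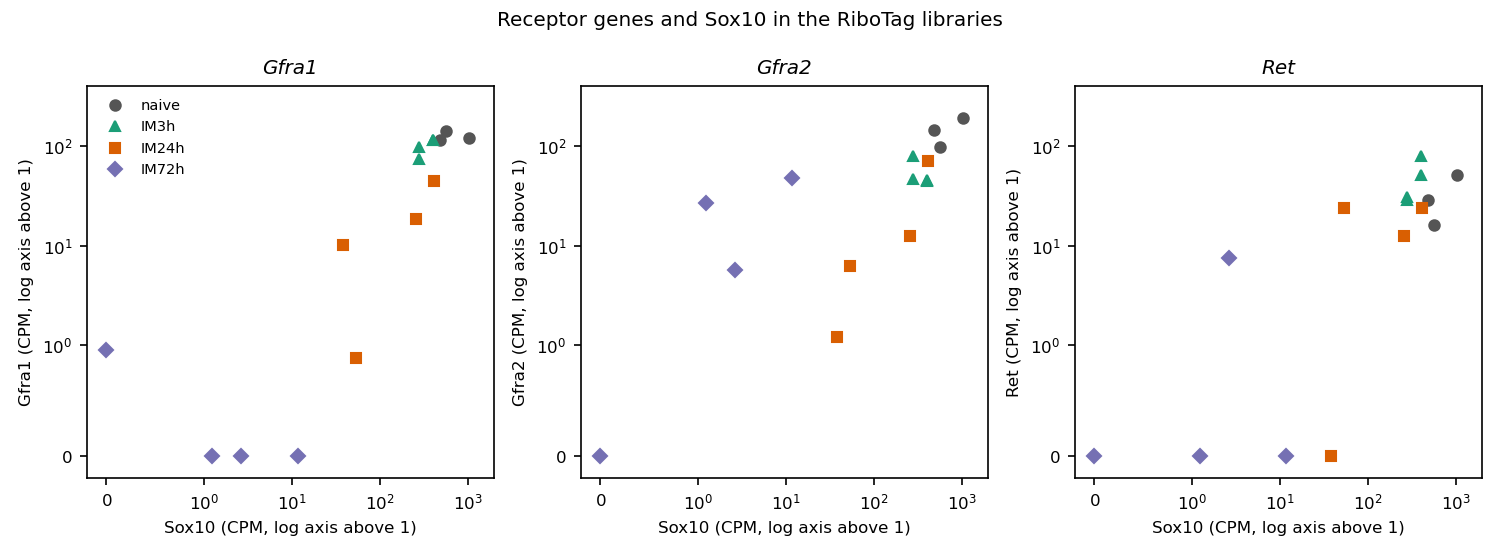
Gfra1, Gfra2 and Ret against Sox10 in the 15 RiboTag libraries, in TMM-scaled CPM on axes that are logarithmic above 1 and linear below. Naïve and IM3h libraries lie at the upper right, those of IM72h at the left, and 2 of the 4 IM24h libraries stand between.

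How far the members belonged to the tagged fraction was read in naïve mice, where counts were divided by the geometric mean of *Actb*, *Hsp90ab1* and *Rplp1* to put both fractions on 1 scale. The *RiboTag* to *ME* ratio was 16.0 for *Gfra3*, 9.25 for *Gfra1*, 6.02 for *Gfra2* and 2.27 for *Ret*, beside 61.0 for *Sox10*. The ratio of *Gdnf* was 0.446, while *Nrtn* at 0.504 and *Artn* at 1.75 overlapped between the fractions. For the 5 of 7 members without overlap, beside 39.3% of 14373 genes, the exact two-sided permutation p was 0.1, the smallest that 3 against 3 libraries allow. Scaled by library totals the ratios were 23.99 for *Gfra3*, 14.5 for *Gfra1*, 9.28 for *Gfra2*, 3.43 for *Ret* and 0.677 for *Gdnf*. The fractions then overlapped for *Gdnf* (exact two-sided permutation p = 0.3) and were apart for *Artn* (ratio 2.82, exact p = 0.1), so that whether the fractions overlapped for these 2 ligands depended on the scaling, and 5 of 7 members then stood beside 48.4% of all genes. The naïve libraries of the fractions came from different Cre lines, which cannot be told apart from the fraction. Smooth muscle markers summed to 4911 to 7560 CPM in naïve *RiboTag* and to 22137 to 23746 CPM in naïve *ME* libraries.

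The counts were assigned to Ensembl transcripts. A single transcript held every *Gdnf* count. Of *Gfra2*, the main of its 2 transcripts in naïve mice held 87.4 to 93.4% of the counts in naïve *RiboTag* libraries and 50.01 to 74.1% at IM3h, without overlap, which also held for the main transcript of 19% of 3931 genes with several transcripts and at least 100 counts in each library. In the *ME* the shares overlapped, with 68.9 to 86.4% in naïve mice and 79.7 to 91.5% at IM3h. The annotated 3′ ends of these 2 are 15 bases apart, and 3′ end libraries read little besides that end, so that the split between them rests on few bases.

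*Ret* has a long and a short form that differ at the carboxyl end of the receptor, and their 3′ ends are 2821 bases apart. The long form has 1115 codons and the short form 1073, and their coding sequences share all letters up to the last base of a codon, after which 51 codons of the long and 9 of the short form follow. The parts from the first letter that differs lie at chr6:118153856-118154009 for the long and chr6:118155259-118155286 for the short form (minus strand, mm10). The ends of both coding sequences are given to show where the isoforms part, with the last 30 shared bases in lower case and all bases from the first difference in capitals, stop codon left out.
Ret long form: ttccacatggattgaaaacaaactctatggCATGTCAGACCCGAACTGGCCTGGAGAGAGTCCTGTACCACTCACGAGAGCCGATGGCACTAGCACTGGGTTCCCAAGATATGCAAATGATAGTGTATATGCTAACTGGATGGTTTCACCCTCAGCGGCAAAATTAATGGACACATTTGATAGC
Ret short form: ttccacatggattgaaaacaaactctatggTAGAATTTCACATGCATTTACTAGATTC
The short form held 44.9 to 77.3% of the *Ret* counts in naïve *RiboTag* and 31.7 to 45.5% in naïve *ME* libraries. In the *ME* the share was 30.9 to 44.3% at IM3h, 46.4 to 61.0% at IM24h and 46.5 to 53.9% at IM72h, so that the libraries of both later times lay above all naïve and IM3h ones, which were of the other mouse line. Among genes with at least 100 counts in each library, a bar that *Ret* missed with 88 counts in 1 naïve library, the main transcript of naïve mice stood apart in 23% of 4260 genes at IM24h and 48.3% of 4431 genes at IM72h. At IM24h in the *RiboTag* fraction the 3 libraries with at least 10 *Ret* counts gave 1.85, 86.2 and 91.1%.

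**Figure D4:**
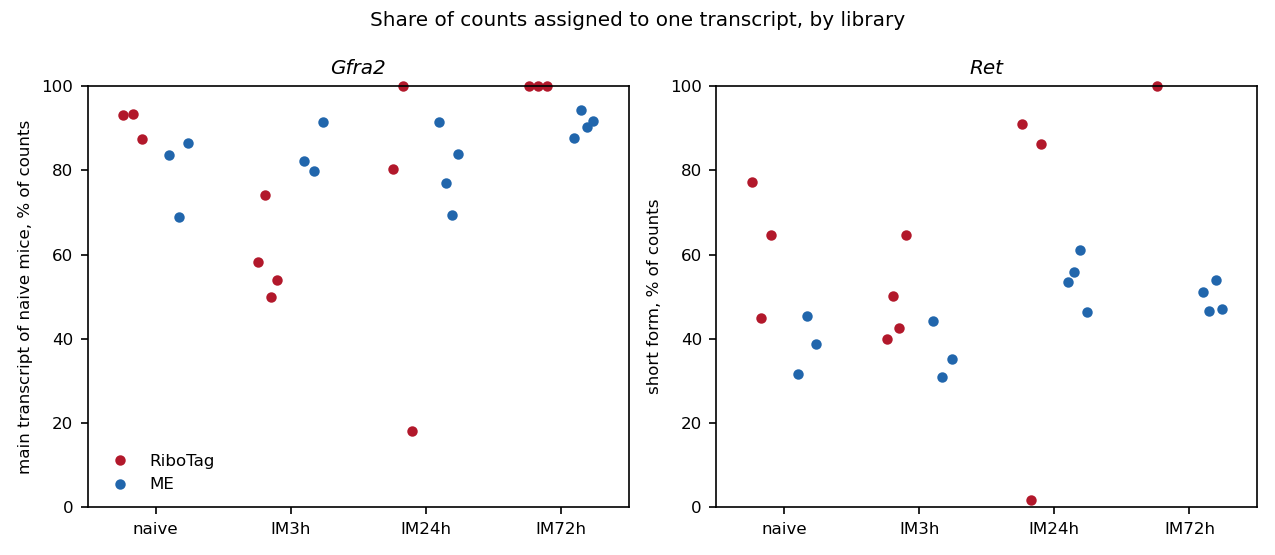
Share of the counts of Gfra2 assigned to its main transcript in naïve mice (left) and of Ret assigned to its short form (right), in percent, for each RiboTag (red) and ME (blue) library with at least 10 counts of the gene. RiboTag shares of the Gfra2 transcript are 87.4 to 93.4% in naïve mice and 50.01 to 74.1% at IM3h.

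The wider pathway was followed in 7 lists of 45 genes, from further ligands to adaptors, targets and other neurotrophic factors. In the *RiboTag* fraction at IM3h, 5 of 37 tested genes rose and 2 fell, with a median log2 fold change of 0.13 beside -0.04 for all genes. Those that rose were *Lif*, a neurotrophic cytokine (4.04, SE 1.06, adjusted p = 0.0261), *Spry2*, a Sprouty feedback inhibitor of receptor kinase signalling (2.81, SE 0.42, adjusted p = 0.0012), and the adaptors *Dok5* (2.48), *Gab2* (1.51) and *Grb2* (1.31), all by edgeR. Those that fell were *Edn3*, the ligand endothelin 3 that acts beside GDNF in enteric development (-2.08, SE 0.51, adjusted p = 0.0182 by edgeR), and *Sox10*. At IM24h 0 of 33 were called by edgeR, and 5 had an unadjusted p under 0.05. At IM72h 0 rose and 7 of 33 fell, among them *Ncam1*, a cell adhesion molecule that serves as another GDNF receptor (-3.18, SE 0.45, adjusted p = 0.00818 by edgeR). The others were *Sox10*, the kinase *Src*, the inhibitors *Spry1* and *Spry4* and the neurotrophic receptors *Ngfr* and *Cntfr*. Of these, *Src*, *Spry1*, *Spry4*, *Ngfr* and *Cntfr* were at the floor of 3 counts at IM72h, and *Ngfr* was at least 35.6-fold lower than in naïve mice. The median was -1.42, or -1.32 with the genes at the floor set to their bounds, beside -0.40 for all genes.

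In the *ME* at IM3h, 11 of 37 rose and 5 fell, with a median of 0.15 beside 0.00 for all genes. *Lif*, at the floor in naïve mice, was at least 20.8-fold higher. *Gdf15*, a distant relative that signals through RET with GFRAL, rose by 3.69, *Spry2* by 2.52, *Dok5* by 1.95 and *Grb2* by 0.93 on the log2 scale. The 3 targets that rose were *Spry2*, *Spry4* (1.09) and *Dusp6* (0.75), a phosphatase that dampens ERK signalling, whereas *Etv1* fell by 0.57. At IM24h 7 of 38 rose and 11 fell, and at IM72h 12 of 39 rose and 14 fell, with medians of -0.04 and 0.03 beside 0.02 and 0.02. At IM72h the ETS factor *Etv5* (1.27, SE 0.14), the phosphatase gene *Dusp6* (1.45) and the adaptors *Grb7* (2.02) and *Grb10* (1.35) were higher, while *Spry4* (-1.67, SE 0.28) and *Etv1* (-0.75, SE 0.11) among the targets and *Frs2* (-0.97), *Ptpn11* (-0.83), *Sos1* (-0.80) and *Shc1* (-0.65) among the adaptors and kinases were lower. In all, 4 of 7 targets were higher and 2 lower, and 5 of 13 adaptors and kinases were higher and 4 lower. *Edn3* (-2.07, SE 0.15), *Ntrk2*, the receptor of brain-derived neurotrophic factor (-2.17, SE 0.35), and *Ntrk3*, the neurotrophin 3 receptor (-1.71, SE 0.16), were also lower. *Etv4*, another ETS factor, was at the floor in naïve mice and at least 11.1-fold higher at IM72h (adjusted p = 3.29e-05 by edgeR). The shares of all genes called in these comparisons are those given above, and 26 of 39 at IM72h stand beside 57.5%.

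Markers of other cell types were summed in the same libraries. Macrophage markers, summed over 6 genes, stood at 117 to 124 CPM in naïve *ME* and 408 to 496 CPM at IM72h, and the glial sum at 127 to 154 CPM and 176 to 326 CPM, while the neuronal sum over 10 genes was 698 to 722 CPM in naïve and 540 to 642 CPM in IM72h libraries. In the *RiboTag* libraries the smooth muscle sum was 1957 to 5052 CPM at IM3h and 2083 to 8791 CPM at IM72h, and the fibroblast sum over 5 genes was 643 to 756 CPM in naïve mice and 215 to 303 CPM at IM3h. In the *ME* the fibroblast sum was 1952 to 2067 CPM in naïve mice and 882 to 989 CPM at IM3h. It was 1110 to 2857 CPM at IM24h and 3277 to 4015 CPM at IM72h. Sums over the 4 markers of interstitial cells of Cajal were 366 to 372 CPM in naïve *ME* and 157 to 182 CPM at IM72h, those over 4 mesothelial markers 121 to 147 and 36.0 to 92.8 CPM, those over 4 endothelial markers 27.3 to 29.3 and 52.8 to 67.9 CPM, and those over 5 markers of proliferating cells 12.5 to 22.6 and 232 to 285 CPM. The 3 neutrophil markers in the table summed to 0.484 to 0.646 CPM in naïve *ME* and 41.1 to 190 CPM at IM24h. Epithelial markers summed to at most 95.1 CPM in any *RiboTag* library. The part of these cells in the levels of the 7 genes was not tested.

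The genes whose 6 log2 fold changes against naïve mice lay nearest to those of *Gdnf*, by root mean square difference among 12315 genes tested in all 6 comparisons, were *Ets1* (1.09), *Btc* (1.25), *Sdc4* (1.34), *Ell2* (1.35) and *Rcan1* (1.42). At IM3h in *RiboTag* they stood between 3.88 for *Sdc4* and 4.59 for *Btc* on the log2 scale, all short of the 6.04 of *Gdnf*. The nearest genes were closer for the other members among these genes, with *Rnf208* (0.207) and *Scgn* (0.322) for *Gfra1*, *Trim37* (0.226) and *Srpr* (0.271) for *Ret*, *Gm47121* (0.221) and *Insyn2a* (0.248) for *Artn*, *Tmem63a* (0.313) and *Car5b* (0.313) for *Nrtn* and *Dalrd3* (0.315) and *Ccdc102a* (0.332) for *Gfra2*. *Gfra3* was not among them, since it was not tested in the *ME* at IM3h and IM24h. These 6 changes rest on shared naïve libraries, and on fitted values where *Gfra1* was at the floor, and the likeness is a description.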

How the data were processed

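RNA of the small bowel *ME* was measured in *RiboTag* and total fractions of naïve, IM3h, IM24h and IM72h mice. Per the labels and methods, the authors made QuantSeq 3′ end libraries, trimmed reads with cutadapt, aligned them to mm10 with STAR, and assigned them to Ensembl transcripts in Partek Flow. The deposited values are estimated counts that the authors did not scale. Values of a symbol were added up and then rounded. The authors' comparison tables hold fold changes and p-values and were not used. Lines of the count tables carry a group but no replicate number, so libraries were numbered within a group by name. No pair of libraries agreed within sampling noise.

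Groups were compared in pairs in edgeR 4.0.16 (limma 3.58.1, R 4.3.3) with TMM scaling, filterByExpr and the two-sided quasi-likelihood test, in 10 comparisons and 3 interactions of fraction and treatment. The code was tested on simulated data. Single levels were compared by exact permutation tests. Where no library of a group exceeded 3 counts of a gene, that group was at the floor, and the fold is a bound that covers counting error only. Nothing in the labels says that libraries came from separate pools of tissue, so p-values measure the spread between them. Counts of genes with near-identical copies were not treated apart. DESeq2 1.42.0, other scalings, no filter on low counts, AY036118 left out, all groups in one fit, the transcript table and leaving out each library were tried. Gene annotation is Ensembl on mm10, and promoters are RefSeq. Entries of the tables have a total of at least 10 counts. The 7 members and the lists of pathway genes and markers were chosen with earlier results of these data known. Named genes are the members, at most 3 called genes with the largest change per pathway list and comparison, and the nearest 5 genes for *Gdnf* and 2 for other members. A gene that this rule names in the *ME* at IM72h is not reported here. *Etv1* at IM3h and *Etv1*, *Etv5*, *Frs2*, *Ptpn11*, *Sos1* and *Shc1* at IM72h in the *ME* were named after their values were seen.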

Additional observations from a re-analysis of the deposited data

Results flagged for a closer look

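In groups of 4 libraries, a library was marked where its gap to the nearest other exceeded Dixon's critical share of the range of the group. This held for 8 of 33 groups. In 5 of them all but 1 library were at 0, which marks the other library by construction, and of the remaining 28 groups 3 were marked, where chance marks about 1 in 20. In the *RiboTag* fraction at IM72h single libraries carried the level of *Nrtn* (4.75 CPM), *Artn* (22.4 CPM), *Ret* (7.48 CPM) and *Gfra1* (0.96 CPM), each beside 3 libraries at 0. *Gfra2* had a high library at IM3h (79.4 CPM) and another at IM24h (70.0 CPM) in the *RiboTag* fraction. In the *ME*, *Gdnf* had a low library at IM72h (6.62 CPM) and *Gfra3* a single library above 0 at IM24h (0.60 CPM).

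The change against naïve mice differed between the fractions for 4 results by the interaction test of edgeR. These were *Gdnf* at IM3h (3.80 on the log2 scale higher in *RiboTag*) and, at IM72h, *Gfra1* (adjusted p = 0.000459), *Gfra2* (-3.94 on the log2 scale) and *Gfra3* (adjusted p = 0.00259).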

How the results depend on the processing

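No paired analysis was possible because the lines of the count tables carry no replicate numbers. The *ME* samples are titled as inputs, and the paper describes input controls as a part of the lysate used for the pulldown. *ME* and *RiboTag* libraries of IM24h and IM72h, which came from the same cross, may therefore share animals. The interactions of fraction and treatment took all libraries as independent. Of 327 values recomputed under another setting, 267 kept their direction and their side of the threshold or stayed within the spread, 19 gained and 16 lost a call, 23 moved and 2 reversed. Of 492 with 1 library left out, 446 kept theirs, 10 gained and 20 lost a call, 13 moved and 3 reversed. The cause of each change below was not tested, unless fewer libraries or another spread entered by construction.

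In the fit over all groups of the *RiboTag* fraction, 0 members were called at IM3h (Gdnf 5.98, adjusted p = 0.0502) and 0 from IM3h to IM24h (Gdnf -3.67, adjusted p = 0.162), 1 at IM72h and 1 from IM24h to IM72h, and in the *ME* 4 from IM3h to IM24h. DESeq2 called 2 members in *RiboTag* at IM24h, 3 from IM3h to IM24h and 1 from IM24h to IM72h, where *Gdnf* was 0.20 in place of -0.29, and 1 in the interaction at IM24h (Gdnf 3.21, adjusted p = 0.00452). Without a filter on low counts, 1 member was called in *RiboTag* at IM72h and 2 from IM3h to IM24h.

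Scaled by library totals, *Gdnf* at IM72h in *RiboTag* was -0.13, 4 members were called in the *ME* at IM3h, *Gdnf* in the *ME* at IM24h was -0.19 (adjusted p = 0.564), and the interaction at IM72h called 5. Scaled by *Actb*, *Hsp90ab1* and *Rplp1*, 4 members were called in the *ME* at IM3h, 1 at IM24h (Gdnf -1.18, adjusted p = 0.0613), 1 from IM3h to IM24h and 1 from IM24h to IM72h (Gdnf -1.002, adjusted p = 0.0551), and 5 in the interaction at IM72h. The members gained in the *ME* at IM3h, by library totals and by the reference genes alike, were *Nrtn* and *Gfra1*, both lower. These scalings move all genes: the median log2 fold change in the *ME* at IM3h, IM24h and IM72h was -0.26, 0.66 and 0.62 by library totals and -0.41, -0.35 and -0.58 by the reference genes, and in *RiboTag* at IM72h -2.13 and -2.07 beside -0.40. The split of all calls moved with them, from 2962 higher and 2058 lower genes in the *ME* at IM3h to 1578 and 5363 by the reference genes, and from 4855 and 4689 at IM72h to 2013 and 7981. In *RiboTag* at IM3h 1422 higher and 712 lower genes became 22 and 12 in the fit over all groups, and at IM24h 56 and 20 became 539 and 385 by DESeq2. Naïve *RiboTag* to *ME* ratios by library totals were 0.874 for *Nrtn*, 2.82 for *Artn*, 14.5 for *Gfra1*, 9.28 for *Gfra2* and 23.99 for *Gfra3*.

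Leaving out 1 library at a time, the members called ranged from 1 to 2 in *RiboTag* at IM3h, 0 to 2 at IM24h, 2 to 4 at IM72h (4 without IM72h library 2), 1 to 3 from IM3h to IM24h (3 without IM24h library 1), 1 to 4 in the *ME* at IM24h (1 without naïve library 2 or IM24h library 3), 0 to 1 in the interaction at IM24h and 2 to 5 in that at IM72h. *Gdnf* ranged from -1.08 to -0.593 in the *ME* at IM24h, from -0.798 to -0.645 from IM24h to IM72h, from -0.933 to 0.227 from IM24h to IM72h in *RiboTag* (0.227 without IM24h library 4, 0.0905 without IM72h library 1 and 0.108 without IM72h library 2), and from 2.62 to 3.78 in the interaction at IM24h and 2.47 to 3.59 in that at IM72h. The ratio of *Artn* ranged from 1.36 to 2.76 and that of *Gfra3* from 10.7 to 22.9. With IM24h *RiboTag* libraries 2 and 3 left out, a choice made after the data were seen, the interaction at IM24h called 1 member (Gdnf 3.81, adjusted p = 0.00588). IM72h *RiboTag* libraries held 663808 to 1619377 counts outside AY036118, so that a gene without counts there is bounded only by the floor of 3 counts.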
